A study of Bos taurus with 18 samples.

Results

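QPCT, CPM and 8 related genes of peptide modification and peptide cleavage at the cell surface or in the secretory pathway were followed along the bull epididymis. The 10 genes are QPCT and QPCTL, the carboxypeptidase genes CPM, CPD, CPE and CPZ, and the ectopeptidase genes MME, ANPEP, ENPEP and DPP4. They are 10 of 18010 genes that the array named by probe sets with exactly 1 gene symbol, and each was taken at the probe set with the highest mean signal over all arrays. Tissue of the 3 epididymal segments (caput, corpus and cauda) of 6 Holstein bulls, 3 of medium-low and 3 of high fertility, was hybridised to 18 gene arrays in 6 groups of 3: medium-low and high caput, medium-low and high corpus, and medium-low and high cauda. The bulls were mature, 51 to 71 months old, untreated as far as the labels say, and culled for the milk yield of their daughters, and the organs came from a slaughterhouse on ice. Fertility was an adjusted rate of cows that were not inseminated again within 56 days, and each bull's rate rested on 282 to 486 first inseminations. Each value below is a log2 signal, so that a difference of 1 is a doubling, and signals of different genes are not compared with each other because probe sets differ in response.

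The epididymis is the duct in which spermatozoa leaving the testis mature and are stored, and its segments secrete different proteins into the lumen. QPCT encodes the secreted glutaminyl cyclase, which turns an N-terminal glutamine or glutamate of a peptide into pyroglutamate and so shields that end from aminopeptidases; QPCTL encodes its Golgi-resident counterpart. The carboxypeptidases of this group remove basic residues from C-terminal ends, CPM at the plasma membrane, CPD mainly in the trans-Golgi network, CPE in secretory granules during prohormone maturation, and CPZ in the extracellular matrix. MME (neprilysin) cuts inside small peptides, ANPEP (aminopeptidase N) and ENPEP (aminopeptidase A) remove neutral and acidic N-terminal residues, and DPP4 removes N-terminal dipeptides that end in proline or alanine. Neprilysin and aminopeptidase N are also known on human spermatozoa.

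Markers of each segment had themselves been picked from these data, so their levels describe the arrays and are no independent check of the segment labels. The mean of 5 caput markers was 11.94 to 13.02 on caput arrays and at most 8.52 elsewhere, that of 3 corpus markers 11.38 to 12.07 on corpus arrays and at most 7.20 elsewhere, and that of 4 cauda markers 9.98 to 11.56 on cauda arrays and at most 7.37 elsewhere. Medium-low caput replicates 1 and 2 stood apart: they correlated with replicate 3 at 0.951 and 0.958 over all probe sets and with each other at 0.980, and pairs within the other groups reached at least 0.978. Both kept the caput markers, with LCN6 at 13.97 and 14.03, but carried S100G at 11.86 and 11.95, against 8.13 in medium-low caput replicate 3 and 6.22 to 6.77 in high caput. Medium-low cauda replicate 3 had GPR50, a cauda marker, at 8.32, against 12.39 to 12.65 on the other cauda arrays. Arrays of the high bulls correlated at 0.986 to 0.990 within each segment, and segment differences inside the high bulls are given beside the averaged ones where they differ.

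QPCT had a signal of 4.17, 5.30 and 11.56 in medium-low caput and 11.40, 11.29 and 12.09 in high caput. In corpus it was 10.83, 10.96 and 11.58 in medium-low bulls and 10.88, 11.13 and 11.17 in high bulls. In cauda it was 5.18, 5.61 and 5.40 in medium-low bulls and 5.45, 5.12 and 5.24 in high bulls. All 6 corpus arrays and 4 of 6 caput arrays were therefore high, all 6 cauda arrays were low; the first 2 medium-low caput replicates lay at or below the level of the cauda. Averaged over both fertility groups, the cauda was lower than the corpus by a log2 difference of -5.76, a 54.1-fold ratio, with no overlap between the arrays. Of all probe sets, 14.3% showed no overlap in that comparison. The cauda minus caput difference was -3.97 and the corpus minus caput difference 1.79, with a standard error of 0.856. Inside the high bulls these differences were -6.32 and -0.53, so the sign of corpus minus caput turned; inside the medium-low bulls they were -1.61 and 4.11. QPCT and CPM are among the genes because their segment patterns were already known from these data, so their segment differences are a description and were not tested. The values come without detection calls, so a low signal may be background and a ratio against it is not an exact fold.

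CPM was high on 4 caput arrays and low on all others. Its signal was 5.42, 5.40 and 11.03 in medium-low caput and 10.73, 10.82 and 11.40 in high caput. The corpus had 6.01, 6.49 and 5.41 in medium-low bulls and 5.76, 6.08 and 5.62 in high bulls, and the cauda had 6.502, 6.16 and 5.65 in medium-low bulls and 6.32, 5.94 and 7.06 in high bulls. The same 4 caput arrays that were high in QPCT were high in CPM, at 10.73 to 11.40; replicates 1 and 2 of the medium-low caput lay with the corpus and cauda arrays, which spanned 5.41 to 7.06. The corpus minus caput difference was -3.24 over both fertility groups, -5.16 inside the high bulls and -1.31 inside the medium-low bulls. The cauda minus caput difference was -2.86 over both groups, -4.54 inside the high bulls and -1.18 inside the medium-low bulls. Cauda minus corpus was 0.38, within the spread of the arrays. QPCT and CPM thus shared the high level in 4 caput arrays and the low level in the cauda, and parted in the corpus, where QPCT was high and CPM low on all 6 arrays. These are whole tissue pieces, in which fewer cells of a type and less RNA per cell cannot be told apart.

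**Figure D1:**
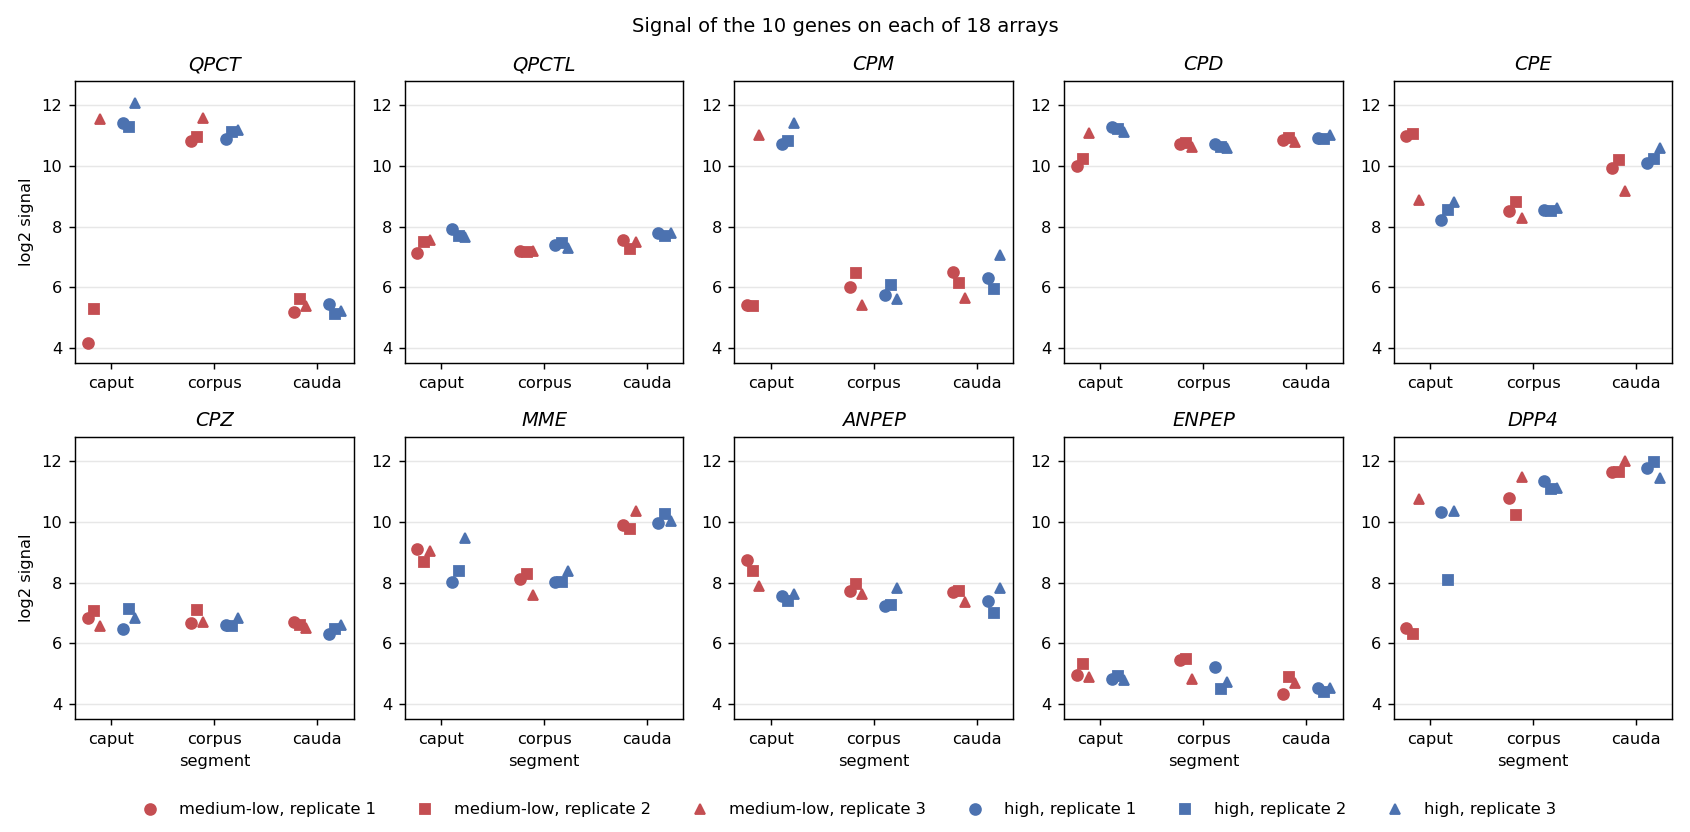
Log2 signal (vertical axis) of the 10 genes in caput, corpus and cauda (horizontal axis), 1 point per array, red for medium-low and blue for high bulls, with a symbol for each replicate number. In the caput, the red circle and square of QPCT (4.17 and 5.30), CPM (5.42 and 5.40) and DPP4 (6.52 and 6.31) lie far below the other 4 caput arrays for QPCT and CPM, and below them for DPP4.

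The genes whose signals followed QPCT and CPM most closely over the 18 arrays were different for each. Pearson's r is given as a description over 18009 other genes, and the arrays share bulls and segments. For QPCT the highest values were those of WFDC8 (0.983), a gene for a protein with whey acidic protein domains, PRKD3 (0.975), a protein kinase gene, C25H16orf89 (0.970), BMF (0.970), an apoptosis gene of the BCL2 family, and MAPK15 (0.968). WFDC8 had 7.40 to 8.22 in medium-low caput replicates 1 and 2, 13.20 to 13.40 on the other 4 caput arrays, 12.92 to 13.15 in corpus and 7.75 to 9.31 in cauda, so it split the caput arrays the same way as QPCT. The lowest values belonged to MAN2A2 (-0.980), a Golgi mannosidase gene, KLHL14 (-0.974), CITED1 (-0.966), S100G (-0.965), which encodes the calcium-binding protein calbindin-D9k, and SREBF1 (-0.962), a regulator of lipid synthesis. CITED1, a gene for a transcriptional co-regulator, had 9.25 to 9.32 in medium-low caput replicates 1 and 2, 4.90 to 5.91 on the other 4 caput arrays, 4.66 to 5.42 in corpus and 7.85 to 8.53 in cauda.

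For CPM the highest correlations were those of MAN2B1 (0.985), the lysosomal alpha-mannosidase gene, SLC25A48 (0.979), FAHD2A (0.979), EPHA4 (0.978), an ephrin receptor gene, and ADORA1 (0.977), an adenosine receptor gene. MAN2B1 had 9.05 to 9.15 in medium-low caput replicates 1 and 2, 13.26 to 13.43 on the other 4 caput arrays, 9.65 to 10.08 in corpus and 9.79 to 10.05 in cauda. EPHA4 had 6.51 to 6.92 on those 2 medium-low caput arrays, 9.34 to 9.58 on the other 4 caput arrays, 6.47 to 6.79 in corpus and 6.56 to 6.88 in cauda. The lowest values were those of LRMDA (-0.974), FAM3D (-0.960), ELMO1 (-0.948), TBC1D30 (-0.947) and MCL1 (-0.943), an anti-apoptotic gene of the BCL2 family. MCL1 spanned a narrow range, with 10.06 on both medium-low caput replicates 1 and 2, 9.25 to 9.51 on the other 4 caput arrays, 9.80 to 10.08 in corpus and 9.75 to 10.04 in cauda. No gene was in the upper or lower 5 of both QPCT and CPM.

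**Figure D2:**
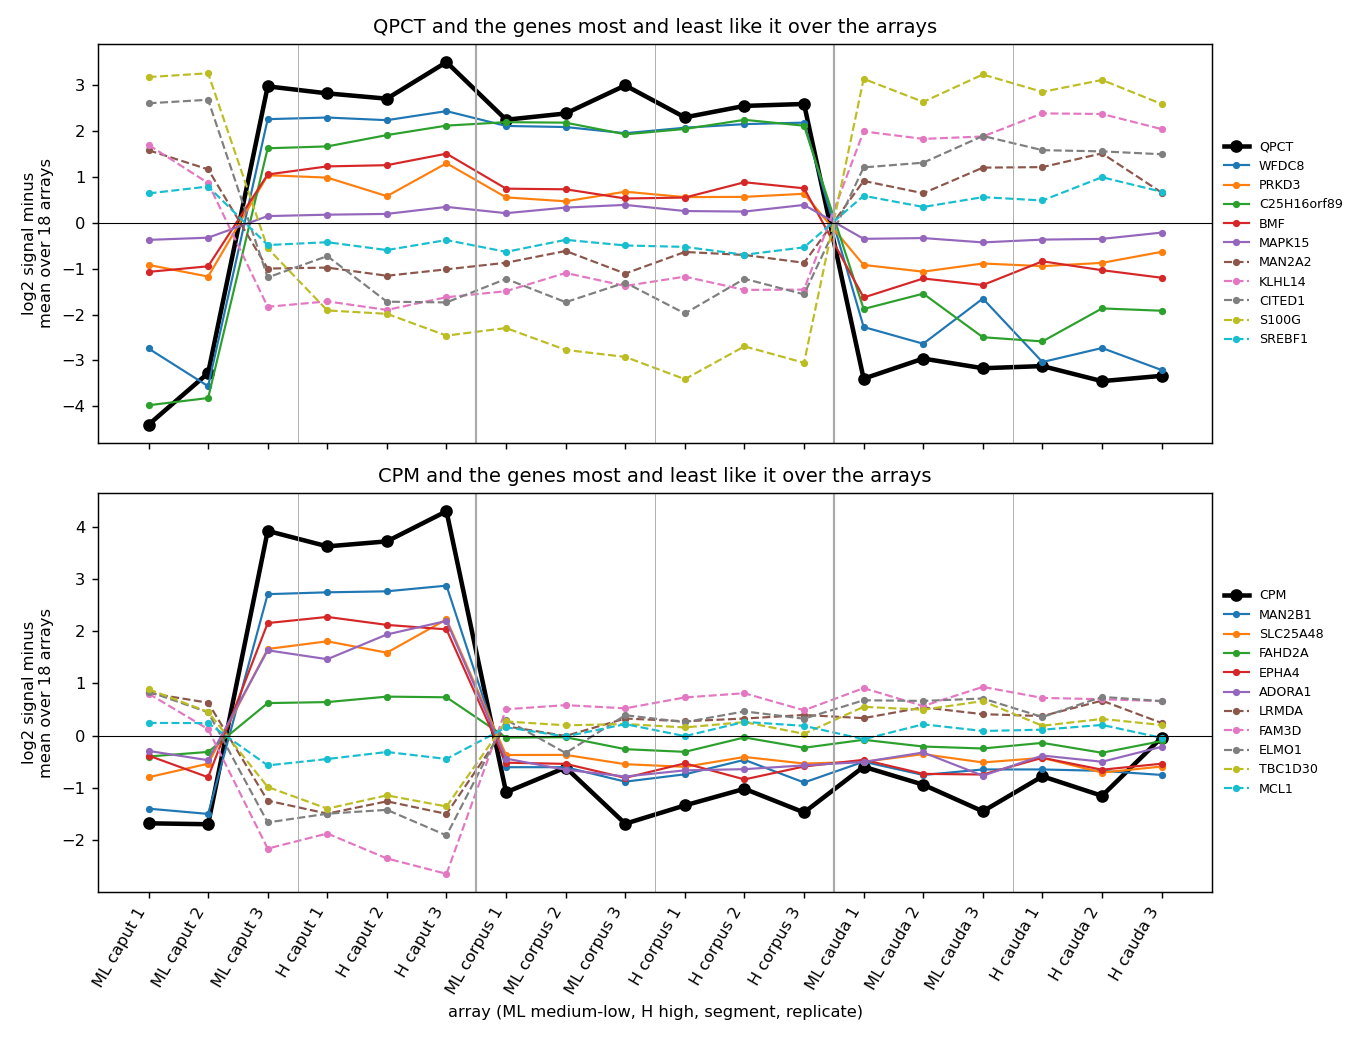
Log2 signal minus each gene's own mean over the 18 arrays (vertical axis) on each array (horizontal axis) for QPCT (upper panel) and CPM (lower panel), with the 5 genes of highest Pearson r as solid lines and the 5 of lowest r as broken lines. Medium-low (ML) caput arrays 1 and 2, at the left, lie closer to the cauda arrays than to the other caput arrays in the QPCT panel. In the CPM panel they lie closer to the corpus and cauda arrays than to the other caput arrays.

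The other 8 genes were tested between segments with limma, 6 arrays against 6 averaged over both fertility groups, with p-values adjusted over all 26773 probe sets by the Benjamini-Hochberg method and a threshold of 0.05. Between corpus and caput, 4 of the 8 changed: DPP4 was higher and QPCTL, CPE and MME were lower in the corpus. Among all probe sets 33.2% passed, 19.5% higher and 13.7% lower. None of the 8 genes had arrays without overlap in this comparison, and 15.1% of all probe sets did. In cauda against caput 2 of the 8 did, beside 15.6% of all probe sets, and in cauda against corpus 3 of the 8, beside 14.3%. Between cauda and caput, MME and DPP4, 2 of the 8, were higher in the cauda and none was lower, and 32.2% of all probe sets passed, 17.2% higher and 15.1% lower. Between cauda and corpus, QPCTL, CPE and MME were higher and ENPEP was lower in the cauda, 4 of the 8, with 24.3% of all probe sets passing, 12.1% higher and 12.3% lower. The median difference of the 8 was -0.22, 0.05 and 0.27 in corpus against caput, cauda against caput and cauda against corpus, and that of all probe sets was 0.06, 0.03 and -0.04. Inside the high bulls, QPCTL and CPD passed in corpus against caput, both lower, CPE and MME in cauda against caput and QPCTL, CPE and MME in cauda against corpus, all higher, where 19.6%, 22.7% and 14.5% of all probe sets passed. Inside the medium-low bulls, DPP4 was higher and CPE and MME lower in corpus than in caput, MME and DPP4 higher and ANPEP lower in cauda than in caput, and MME higher in cauda than in corpus, where 17.7%, 20.5% and 10.1% of all probe sets passed. The count for cauda against caput moved with the processing. With array medians subtracted or with cyclic loess it was 2 higher and 3 lower (CPZ, ANPEP and ENPEP). With quantile normalization it was 2 higher and 2 lower (ANPEP and ENPEP). Without medium-low caput replicate 3 it was 3 higher and 3 lower. The share of all probe sets without that array is not given here, so this last count cannot be read as particular to the genes. Of all probe sets, 32% passed with array medians subtracted, 32.7% with cyclic loess and 32.5% with quantile normalization.

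**Figure D3:**
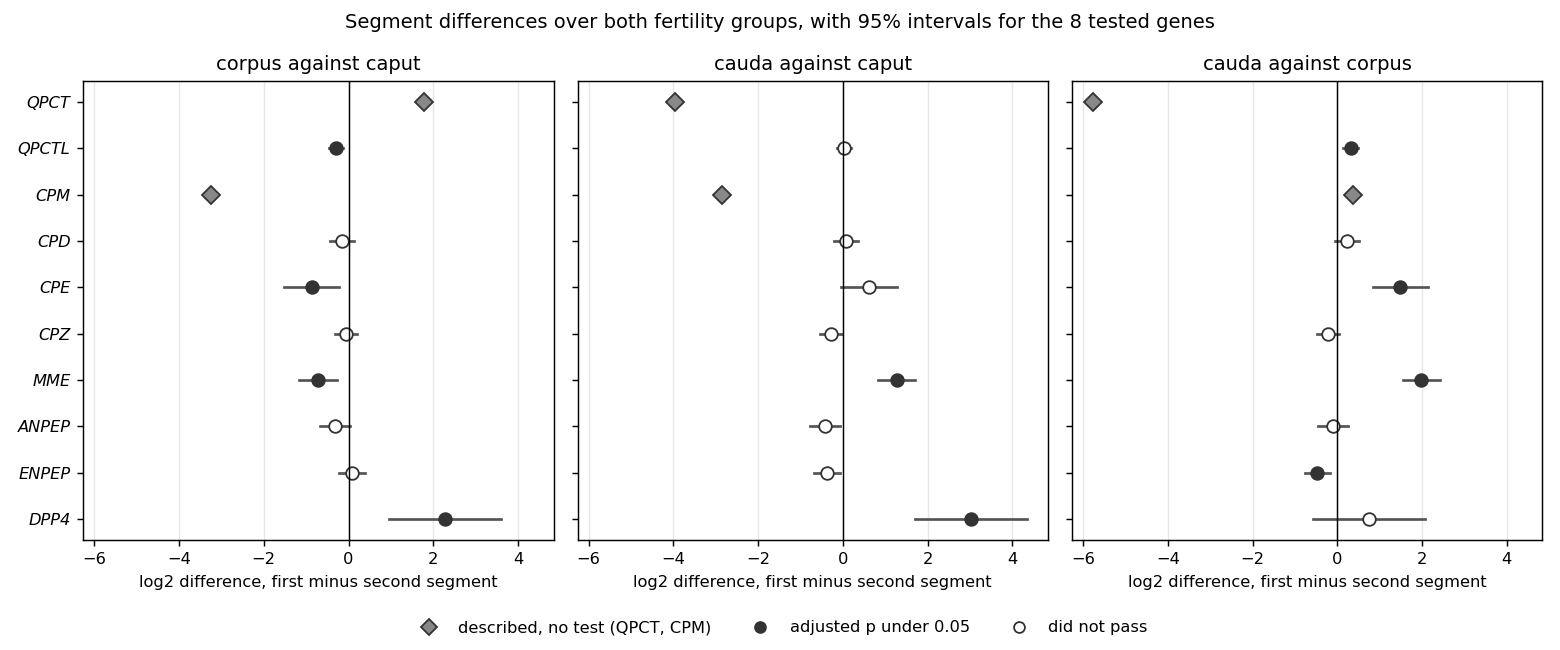
Log2 difference between segments (horizontal axis, first named minus second named segment, averaged over both fertility groups) for the 10 genes (vertical axis). Circles with 95% intervals are the 8 tested genes, filled where limma's adjusted p was under 0.05, and grey diamonds are QPCT and CPM, shown without a test. MME and DPP4 lie right of 0 in cauda against caput (1.27 and 3.02), and the QPCT diamond lies farthest left in cauda against corpus (-5.76).

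QPCTL, the Golgi counterpart of QPCT, did not share its steep pattern. Its signal was 7.15, 7.50 and 7.57 in medium-low caput and 7.91, 7.68 and 7.68 in high caput, 7.22, 7.16 and 7.19 in medium-low corpus and 7.41, 7.45 and 7.29 in high corpus, and 7.58, 7.28 and 7.51 in medium-low cauda and 7.78, 7.69 and 7.79 in high cauda. All 18 arrays lay within 7.15 to 7.91, and the corpus of each fertility group was at the low end. The corpus was lower than the caput by a log2 difference of -0.30 (SE 0.081, limma adjusted p = 0.0114), and the cauda was higher than the corpus by 0.32 (SE 0.081, limma adjusted p = 0.00942). Cauda minus caput was 0.02 with a 95% interval of -0.15 to 0.19. Both passing differences fell short of the threshold inside the medium-low bulls, at -0.22 (limma adjusted p = 0.208) and 0.26 (limma adjusted p = 0.174).

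Of CPD, CPE and CPZ, only CPE passed in a segment comparison averaged over both fertility groups. It had 10.98, 11.05 and 8.88 in medium-low caput and 8.24, 8.57 and 8.81 in high caput. In corpus it had 8.51, 8.82 and 8.28 in medium-low bulls and 8.54, 8.52 and 8.61 in high bulls, and in cauda 9.94, 10.21 and 9.18 in medium-low bulls and 10.09, 10.23 and 10.58 in high bulls. All 6 cauda arrays were above all 6 corpus arrays, and 14.3% of all probe sets showed no overlap in that comparison. CPE was higher in cauda than in corpus by 1.49 (SE 0.305, 2.81-fold, limma adjusted p = 0.00218). Medium-low caput replicates 1 and 2 had the highest CPE signals of all arrays, whereas the same 2 arrays had the low signals of QPCT and CPM.

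The comparisons of CPE with the caput changed in size without those 2 arrays. Over all arrays the corpus was lower than the caput by -0.87 (SE 0.305, limma adjusted p = 0.0392), but with both arrays left out the difference was -0.16 (limma adjusted p = 0.575), and inside the high bulls it was 0.02. Besides inside the high bulls, the call was lost in 12 of 27 alternative settings. These were leaving out both arrays, quantile normalization and cyclic loess (-0.83 and -0.85, both limma adjusted p = 0.0537), and leaving out any of 9 single arrays (medium-low caput replicate 1 or 2, medium-low corpus replicate 1 or 3, high caput replicate 2 or 3, or any high corpus array), with differences of -0.89 to -0.69 and limma adjusted p values of 0.0649 to 0.0983. Cauda minus caput was 0.62 over all arrays (limma adjusted p = 0.142), 1.33 with both arrays left out (limma adjusted p = 0.000242) and 1.76 inside the high bulls (limma adjusted p = 0.00781).

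CPD and CPZ passed in none of the 3 averaged segment comparisons. CPD had 10.01, 10.25 and 11.08 in medium-low caput and 11.30, 11.21 and 11.12 in high caput, 10.60 to 10.76 in corpus and 10.81 to 11.03 in cauda. The cauda and corpus arrays of CPD did not overlap, and 14.3% of all probe sets showed no overlap in that comparison. The difference of 0.22 had a limma adjusted p of 0.249 over all arrays. Without medium-low caput replicate 3, an array outside this comparison, the same difference had a limma adjusted p of 0.0147. The model's spread was shared over all groups, the caput included. The 2 lowest CPD signals were again medium-low caput replicates 1 and 2. Without both, corpus minus caput was -0.47 (limma adjusted p = 0.000276) and cauda minus caput -0.24 (limma adjusted p = 0.0177), against -0.15 and 0.07 with all arrays, so cauda minus caput had the other sign. Inside the high bulls, CPD was lower in corpus than in caput by -0.56 (limma adjusted p = 0.0480). CPZ stayed within 6.31 to 7.14 on all arrays, and its difference furthest from 0 was cauda minus caput at -0.28 (limma adjusted p = 0.0881), with caput and cauda arrays overlapping.

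MME, the neprilysin gene, was highest in the cauda. It had 9.09, 8.69 and 9.05 in medium-low caput and 8.02, 8.37 and 9.47 in high caput, 8.11, 8.27 and 7.59 in medium-low corpus and 8.02, 8.01 and 8.39 in high corpus. In cauda it had 9.89, 9.76 and 10.37 in medium-low bulls and 9.98, 10.27 and 10.04 in high bulls. Every cauda array lay above every caput and corpus array, which spanned 7.59 to 9.47. Of all probe sets, 15.6% showed no overlap between cauda and caput and 14.3% between cauda and corpus. The cauda was higher than the corpus by 1.99 (SE 0.208, 3.96-fold, limma adjusted p = 6.63e-06) and higher than the caput by 1.27 (SE 0.208, 2.41-fold, limma adjusted p = 0.000233). Both differences passed under all 27 alternative settings, at 1.89 to 2.06 and 1.06 to 1.48. The corpus was lower than the caput by -0.72 (SE 0.208, limma adjusted p = 0.0159), with overlapping arrays, and this difference was -0.48 inside the high bulls (limma adjusted p = 0.277).

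Smooth muscle markers were higher in the cauda, as MME was against both other segments and CPE against the corpus. Of 8 listed markers 7 were measured, and all 7 were higher in cauda than in caput and than in corpus. Their mean signal was 11.62 to 12.56 in cauda, 10.52 to 10.99 in caput and 10.55 to 11.23 in corpus. Medium-low cauda replicate 3 had the lowest smooth muscle mean of the cauda, 11.62, together with the highest MME signal, 10.37, and the lowest CPE signal of the cauda, 9.18. Medium-low caput replicates 1 and 2 had smooth muscle means of 10.79 and 10.99 with CPE at 10.98 and 11.05. Endothelial markers, 7 of 7 measured, also had a higher mean in cauda (8.40 to 8.82) and corpus (8.24 to 8.55) than in caput (7.64 to 7.90). Of 6 fibroblast markers 4 were higher and 1 lower in cauda than in caput, and all 4 basal cell markers were higher in corpus than in caput. The part of any of these cell types in the signals of MME, CPE and DPP4 was not tested.

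**Figure D4:**
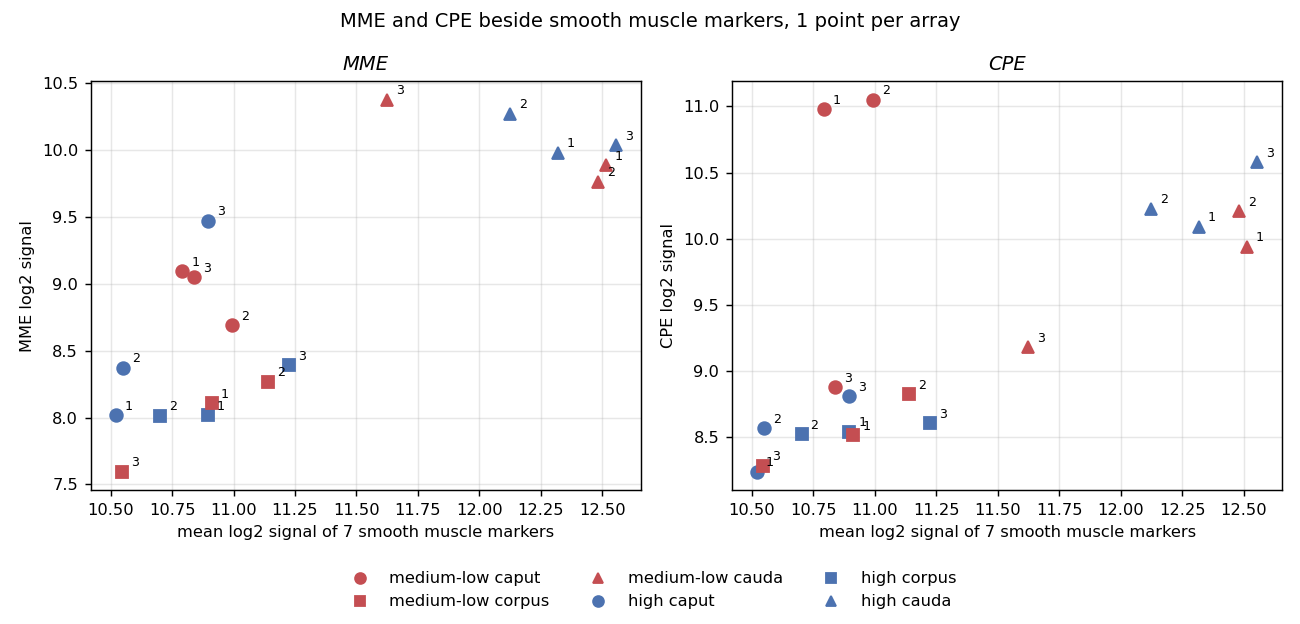
Log2 signal of MME (left) and CPE (right) against the mean log2 signal of 7 smooth muscle markers (horizontal axis), 1 point per array with its replicate number, red for medium-low and blue for high bulls, circles for caput, squares for corpus and triangles for cauda. The cauda arrays lie at the right with MME at 9.76 to 10.37, and the 2 red circles with CPE at 10.98 and 11.05 lie at smooth muscle means of 10.79 and 10.99.

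DPP4, the dipeptidyl peptidase gene, was lowest in the caput. It had 6.52, 6.31 and 10.74 in medium-low caput and 10.32, 8.10 and 10.35 in high caput. In corpus it had 10.77, 10.24 and 11.47 in medium-low bulls and 11.33, 11.07 and 11.11 in high bulls, and in cauda 11.65, 11.63 and 11.99 in medium-low bulls and 11.77, 11.97 and 11.46 in high bulls. The cauda arrays lay above all caput arrays, and 15.6% of all probe sets showed no overlap in that comparison. Within the caput the spread was wide, with medium-low replicates 1 and 2 lowest and high replicate 2 next. DPP4 was higher in cauda than in caput by 3.02 (SE 0.617, 8.12-fold, limma adjusted p = 0.00142) and higher in corpus than in caput by 2.28 (SE 0.617, 4.85-fold, limma adjusted p = 0.0110). Without medium-low caput replicates 1 and 2 the cauda difference was 1.58 and still passed, and the corpus difference was 0.83 and did not (limma adjusted p = 0.139). Inside the high bulls they were 2.14 and 1.58 and neither passed (limma adjusted p = 0.0959 and 0.224). Cauda minus corpus was 0.74 with a 95% interval of -0.57 to 2.06.

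The 2 probe sets of DPP4 agreed on which arrays were high. The probe set not used lay within -0.07 and 0.15 of the used one on 16 arrays and was lower still on the first 2 replicates of the medium-low caput, at 5.74 and 5.35. T cells also carry DPP4. The mean of 5 T cell markers was 6.80, 6.37 and 7.17 in medium-low caput and 7.02 to 7.32 in high caput. None of the 5 passed in any segment comparison, and the part of T cells in the DPP4 signal was not tested.

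The aminopeptidase genes changed little between segments. ANPEP had 8.73, 8.39 and 7.87 in medium-low caput and 7.54, 7.40 and 7.62 in high caput, 7.72, 7.96 and 7.62 in medium-low corpus and 7.24, 7.28 and 7.82 in high corpus, and 7.70, 7.73 and 7.35 in medium-low cauda and 7.38, 7.001 and 7.84 in high cauda. The 2 highest signals were those of medium-low caput replicates 1 and 2, and the segments overlapped. Cauda minus caput was -0.43 (SE 0.164) and just missed the threshold, with a limma adjusted p of 0.0588. It passed in 9 of 27 alternative settings and was -0.74 inside the medium-low bulls and -0.12 inside the high bulls. ENPEP spanned 4.34 to 5.49 over all arrays, where no detection call shows that it was above background. It was lower in cauda than in corpus by -0.47 (SE 0.143, limma adjusted p = 0.0269), with 4.34 to 4.89 in medium-low cauda and 4.82 to 5.49 in medium-low corpus, and 4.41 to 4.52 in high cauda and 4.48 to 5.22 in high corpus. Cauda minus caput was -0.38 (SE 0.143, limma adjusted p = 0.0531) and passed in 9 of 26 settings. The call between cauda and corpus was lost in 7 settings, 5 of them leaving out a single array of corpus or cauda, with adjusted p values of 0.0570 to 0.0720 without high corpus replicate 1, high cauda replicate 2, medium-low corpus replicate 1, medium-low corpus replicate 2 or medium-low cauda replicate 1.

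Between medium-low and high bulls, none of the 10 genes passed in the caput, where 0.213% of all probe sets did. At an unadjusted p under 0.05 there were 6, QPCT, QPCTL, CPM and CPD with lower signals and CPE and ANPEP with higher signals in medium-low caput, and 20.8% of all probe sets reached that level. The differences were -4.58 for QPCT (SE 1.21, limma adjusted p = 0.0683), -3.70 for CPM (SE 1.02, limma adjusted p = 0.0697), -0.76 for CPD and 1.77 for CPE (both limma adjusted p = 0.0655), 0.81 for ANPEP (limma adjusted p = 0.0756) and -0.35 for QPCTL (limma adjusted p = 0.102). The medium-low and high arrays did not overlap for QPCTL, CPD, CPE and ANPEP, 4 of the 10, and 18.5% of all probe sets showed no overlap. QPCT and CPM overlapped because medium-low caput replicate 3 lay with the high bulls in both.

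The size of these caput differences depended on which medium-low arrays were kept. Without medium-low caput replicate 3, 7 of the 10 genes passed, as did 17.6% of all probe sets; among the 7 were QPCT at -6.86 (limma adjusted p = 1.6e-09), CPM at -5.58 (limma adjusted p = 4.93e-08), DPP4 at -3.18 (limma adjusted p = 0.000514) and CPE at 2.48 (limma adjusted p = 7.95e-06). Without replicates 1 and 2 none passed, nor did more than 0.0112% of all probe sets; QPCT was -0.04, CPM was 0.04, DPP4 was 1.15, CPD was -0.13, CPE was 0.34, ANPEP was 0.35 and QPCTL was -0.18, and the single medium-low array left was assumed to vary like the other groups. The mean of 7 sperm and spermatid markers was 6.33 on replicate 1, 9.16 on replicate 2 and 9.27 on replicate 3 of the medium-low caput, against 7.94 to 8.15 in high caput. The means of 6 luminal epithelial markers were 10.16 to 10.30 in medium-low caput and 10.23 to 10.33 in high caput. Basal cell markers had means of 8.63 and 8.50 on medium-low caput replicates 1 and 2 and 7.88 to 8.33 on the other 4 caput arrays, and mononuclear phagocyte markers were higher on both replicates, up to 8.05, against 7.62 to 7.83 on those 4. The mean of 3 corpus markers was also higher on those 2 arrays, at 7.19 and 7.20 against 6.28 to 6.57. That of 4 cauda markers was 7.37 and 7.18 there, against 5.91 to 6.28. By contrast, the median difference between medium-low and high caput was -0.097 for the corpus markers and -0.0046 for the cauda markers. S100G, a cauda marker, had 11.86 and 11.95 on those 2 arrays. T cell markers were lower there, at 6.80 and 6.37 against 7.02 to 7.32, and so were the 2 nerve and glia markers measured, at 9.30 and 9.37 against 9.43 to 9.66. The part of these cell types and segments in the differences was not tested.

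**Figure D5:**
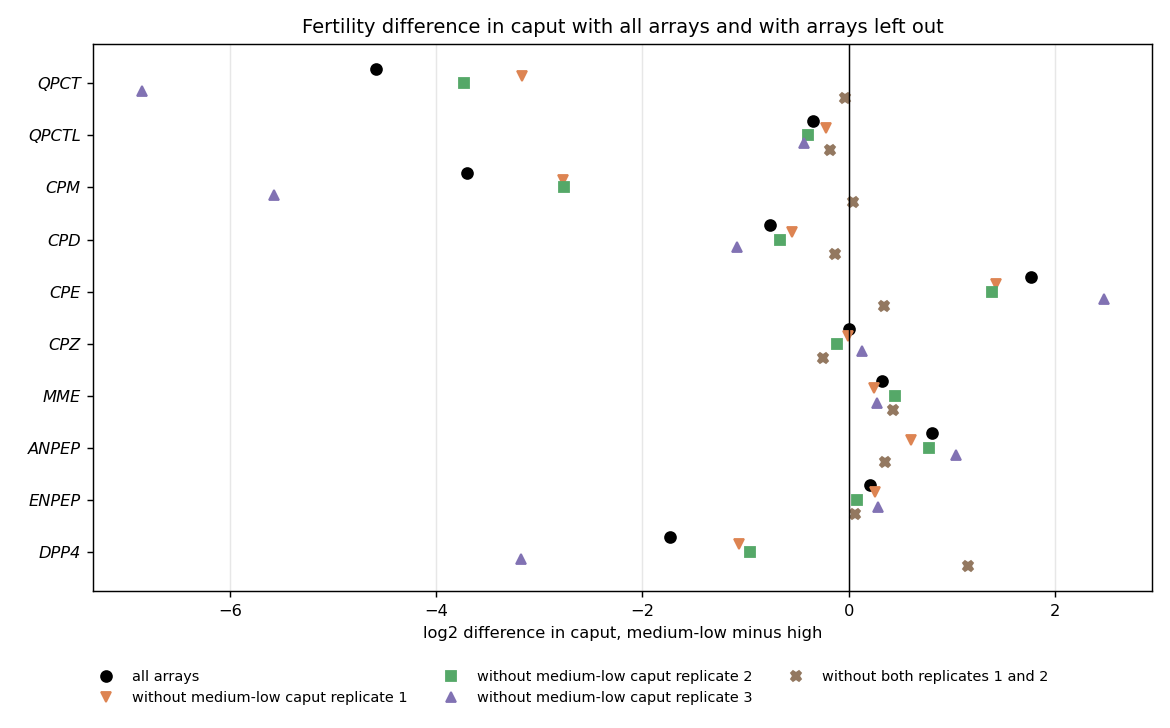
Log2 difference in caput, medium-low minus high (horizontal axis), for the 10 genes (vertical axis) with all arrays (black circles) and with medium-low caput arrays left out as the legend names. QPCT moves between -6.86 without replicate 3 and -0.04 without both replicates 1 and 2, and CPM between -5.58 and 0.04.

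In corpus and cauda the fertility groups lay close together. None of the 10 genes passed in the corpus, where 0.00374% of all probe sets did, and none in the cauda, where 0.0112% did. The differences ran between -0.34 and 0.45 in corpus and between -0.52 and 0.19 in cauda, and at an unadjusted p under 0.05 there were ENPEP in corpus, beside 4.41% of all probe sets, and QPCTL in cauda, beside 5.81%. QPCTL was lower on every medium-low array than on every high array of the same segment in all 3 segments. Its difference was -0.19 in corpus and -0.30 in cauda, with limma adjusted p values of 1.00 and 0.757. Among all probe sets, 18.5% in caput, 11.3% in corpus and 11.6% in cauda showed no overlap. The share of probe sets that did so in all 3 segments was not counted. The 3 segments came from the same bulls and are not independent repeats.

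Whether the fertility difference varied with the segment was tested as an interaction, and none of the 10 genes passed, with limma adjusted p values of 0.548 to 0.963 and 0.00374% of all probe sets passing. At an unadjusted p under 0.05 there were 4, QPCT, CPM, CPD and CPE, and 8.79% of all probe sets. With the arrays of each fertility group and replicate number averaged over the segments, 3 medium-low means against 3 high means, again none passed, and 0.00374% of all probe sets did. At an unadjusted p under 0.05 there were 4, QPCTL, CPM, CPD and ANPEP, and 9.25% of all probe sets. QPCTL averaged 7.35 ± 0.06 in medium-low bulls and 7.63 ± 0.06 in high bulls (SD, n = 3 each), a difference of -0.28 (SE 0.069, limma adjusted p = 0.537).

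Further genes of peptide cleavage and of the peptides concerned were taken from lists. Their counts stand beside the 33.2%, 32.2% and 24.3% of all probe sets that passed in corpus against caput, cauda against caput and cauda against corpus. Of 51 measured genes of other surface and secretory peptidases, 8 were higher and 6 lower in corpus than in caput, 12 higher and 5 lower in cauda than in caput, and 8 higher and 3 lower in cauda than in corpus. In all, 14, 17 and 11 of 51 passed, or 27.5%, 33.3% and 21.6%. Their median differences were 0.04, 0.06 and 0.09 in these comparisons, beside 0.06, 0.03 and -0.04 for all probe sets. PHEX, an endopeptidase gene of the neprilysin family, was lower in corpus than in caput by -1.73 and higher in cauda than in corpus by 1.34, the order that MME also showed between corpus and its neighbours. CPQ, a gene for a secreted plasma carboxypeptidase, was lower in corpus than in caput by -1.33 (limma adjusted p = 0.000270) and higher in cauda than in corpus by 0.76. DPP7, a dipeptidyl peptidase gene of intracellular vesicles, was higher in cauda than in caput by 1.05, GGT5, a gamma-glutamyltransferase gene, by 1.01, SCPEP1, a serine carboxypeptidase gene, by 1.00 and ECE1, an endothelin-converting enzyme gene, by 0.92.

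Of 14 genes of prohormone processing, 2 were higher and none lower in corpus than in caput, 2 were higher and 2 lower in cauda than in caput, and 2 were higher and 2 lower in cauda than in corpus. In all, 2, 4 and 4 of 14 passed, or 14.3%, 28.6% and 28.6%. The medians were 0.08, 0.07 and -0.01. PCSK6 was higher in corpus than in caput by 0.99 and lower in cauda than in corpus by -1.61, and FURIN was lower in cauda than in caput by -1.38; both encode proprotein convertases, which cut at the basic residues that carboxypeptidases such as CPE and CPD then trim. SCG5, a granule protein gene, was higher in corpus than in caput by 0.84. PCSK5 was higher by 0.43, SCG2 higher by 0.35 and PCSK4 lower by -0.38 in cauda than in caput.

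Of 42 measured genes of peptide substrates and their receptors, 10 were higher and 2 lower in corpus than in caput, 11 higher and 4 lower in cauda than in caput, and 7 higher and 6 lower in cauda than in corpus. In all, 12, 15 and 13 of 42 passed, or 28.6%, 35.7% and 31.0%. The medians were 0.12, 0.12 and -0.02. PENK, the enkephalin precursor whose peptides neprilysin and aminopeptidase N cleave, was lower in cauda by -1.74 than in corpus and by -1.70 than in caput, where MME was higher. BDKRB2, the receptor of bradykinin, was higher in cauda than in caput by 1.54. NPR1, the receptor of atrial natriuretic peptide, was higher in corpus than in caput by 1.71 and lower in cauda than in corpus by -1.34. CCL2, a chemokine whose N-terminus glutaminyl cyclases modify, was higher in cauda than in caput by 1.37, where QPCT was low. EDN1 was higher in corpus than in caput by 1.29, and GRP was higher in cauda than in caput by 1.04. No gene of the 3 lists passed between medium-low and high bulls in any segment.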

How the data were processed

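The authors deposited log2 signals, 1 value for each probe set on each array, made with RMA (background correction, quantile normalization and summary of probes), per the submitters' processing notes; Affymetrix Expression Console and Partek 6.5 are named there with no role. The labels' protocols give 200 ng of total RNA per sample, labelled with a whole-transcript kit. The genome build of the array was not given in the sources used here. Over 26773 probe sets the values ran from 2.56 to 14.5 and array medians from 7.26 to 7.39, and nothing further was normalized or filtered. Of the probe sets, 18457 named 1 gene, 688 several and 7628 none in the sources used here; all 10 symbols matched the current RefSeq table by gene number, and 11 probe sets named them.

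The 6 group means were fitted together with limma 3.58.1 in R 4.3.3 (empirical Bayes, Benjamini-Hochberg over all probe sets, threshold 0.05), tested on simulated data. Fertility was compared within segments, segments with equal weight on both fertility groups. A standard error (SE) is the model's, a standard deviation (SD) is between arrays or means. The number of arrays limits the precision. No label ties a replicate number to a bull, so p-values over arrays of several segments may treat 1 bull as several. The genes, lists and tests were chosen with earlier results of these data known, as was the alternative without medium-low caput replicates 1 and 2. Every member is named; for QPCT and CPM so are the 5 genes of highest and lowest Pearson r, and from each list up to 6 passing genes with the largest segment difference. Alternatives were other scalings, a filter on dim probe sets, another prior, all probe sets of a gene, a replicate block, each fertility group alone, each segment fitted alone, and arrays left out.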

Additional observations from a re-analysis of the deposited data

How the results depend on the processing

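Of 975 tested values of single genes under alternative settings, 880 kept their direction and side of the threshold. Of the rest, 41 passed only in the alternative, 26 passed only in the original setting and 28 changed sign. The values cover the segment comparisons and fertility in caput, but only QPCTL for fertility in corpus, in cauda and over the means. Interaction values of single genes were not followed. QPCT and CPM between segments, described without a test, are not among them: of their 159 values 2 changed sign, QPCT in corpus against caput at -0.53 inside the high bulls and -0.48 without medium-low caput replicates 1 and 2, while QPCT in cauda against caput ranged between -6.32 and -1.61 and CPM in corpus against caput between -5.16 and -1.31. With 4 genes passing in corpus against caput, 2 passed inside the high bulls. In cauda against caput, where 2 passed, 5 did with array medians subtracted, 4 with quantile normalization, 5 with cyclic loess and 4 with the replicate block. The block added ANPEP at a limma adjusted p of 0.0275 and ENPEP at 0.0318. Of all probe sets, 32% passed in cauda against caput with array medians subtracted, 32.5% with quantile normalization, 32.7% with cyclic loess and 36.5% with the block. In cauda against corpus, 4 of the genes passed over all arrays and 1 inside the medium-low bulls. Between fertility groups in caput, none passed over all arrays and 4 did with dim probe sets left out, where 7.08% of all did; this leaves 7 of the genes and fewer probe sets to adjust over. With 1 array left out at a time the counts were 3 to 5, 2 to 6 and 3 to 5 in the 3 segment comparisons in the same order. The shares of all probe sets beside these ranges are not given here, so the ranges cannot be read as particular to the genes. For fertility in caput the counts were 0 to 7, for the interaction 0 to 5, over the means of a replicate number 0 to 1, and for fertility in corpus and cauda 0. The upper ends for fertility in caput, the interaction and the means came without medium-low caput replicate 3. In that setting 17.6%, 8.81% and 0.138% of all probe sets passed. The block moved no other count by over 1.5 times and was no established pairing: same-numbered arrays of a fertility group correlated at 0.07 to 0.55 in their deviations from the group means, 17 of 18 pairs above 0.1, and differently numbered ones at -0.39 to 0.11.

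Sign changes concerned values near 0 or those resting on caput arrays, and beyond what a setting's own construction shows the cause was not tested. In corpus against caput, CPD was 0.26 inside the medium-low bulls and -0.26 to 0.011 with 1 array left out, CPE 0.019 inside the high bulls, CPZ 0.013 inside the medium-low bulls, 0.066 without both arrays and -0.15 to 0.021 with 1 array left out, and ENPEP -0.037 inside the high bulls and -0.019 to 0.19 with 1 array left out. In cauda against caput, QPCTL was -0.025 with array medians subtracted, -0.017 with quantile normalization, -0.028 with cyclic loess, -0.00042 inside the high bulls, -0.061 without both arrays and -0.043 to 0.066 with 1 array left out; CPD was -0.27 inside the high bulls, -0.24 without both arrays and -0.036 to 0.23 with 1 left out; CPE was -0.53 inside the medium-low bulls. For fertility in caput, CPM was 0.040 and DPP4 1.15 without both arrays, and CPZ was -0.016 with medians subtracted, -0.045 with quantile normalization, -0.058 with cyclic loess, -0.25 without both arrays and -0.17 to 0.17 with 1 left out. The fit of a single segment could not be made for comparisons between segments. Signals near background and 3 arrays per group limit what differences these data can show.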
